A study of Homo sapiens with 12 samples.

Results

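The genes described here are the expressed solute carriers of HCT116 cells: 164 of the 333 protein-coding genes with a solute carrier symbol, out of 56104 genes in the deposited tables. They were chosen by a mean of at least 100 raw counts over the 6 RNA-seq libraries, which 172 solute carriers reached, and 8 of these were left out by name (the list of 10 names holds SLC15A1, SLC26A3, SLC2A1, SLC7A5, SLC7A11, SLC3A2, SLC1A5, SLC38A2, SLC7A1 and SLC6A9). The choice used the mean over both genotypes and no contrast between them. HCT116 is an established human colorectal carcinoma cell line, used at passages under 15, and 4 groups of 3 libraries were compared. These were 4sU-seq of cells with a knockout of PPM1G (KO), 4sU-seq of control cells (Ctrl), RNA-seq of KO cells and RNA-seq of Ctrl cells. The PPM1G protein is a PP2C-type phosphatase of the nucleus. For 4sU-seq the cells took up 4-thiouridine (500 µM) for 10 min, and 300 µg of RNA went into the purification of the labelled, newly made RNA. RNA-seq measured steady-state RNA. All libraries of both genotypes carried ERCC spike-in RNA, and all cultures were grown in the same medium with serum. The labels do not say whether the KO cells are 1 clone, which site was edited or what the Ctrl cells carry, so a difference between these lines and an effect of PPM1G loss cannot be told apart. The 4sU-seq libraries are labelled as biological replicates, whereas the origin of the RNA-seq replicates is not described, so p-values there measure only the spread between these samples.

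Solute carriers are membrane proteins that move amino acids, sugars, ions, nucleosides, lipids and vitamins across the plasma membrane or the membranes of mitochondria, lysosomes and the Golgi apparatus, by facilitated diffusion or coupled to the gradient of another ion. They are named by family (the number before the A) and member (the number after it), and families broadly share a kind of substrate. In intestinal epithelium and in cancers derived from it they take up nutrients, export lactate and protons, and set the ion balance of the cell.

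PPM1G had 97.8, 94.9 and 97.9 normalized CPM in the KO RNA-seq libraries and 326, 293 and 331 in the Ctrl RNA-seq libraries. In 4sU-seq it had 98.9, 144 and 104 normalized CPM in the KO libraries against 242, 271 and 235 in the Ctrl libraries. The targeted gene was thus lower in all KO libraries of both assays (log2 fold change -1.71 ± 0.06 in RNA-seq and -1.11 ± 0.17 in 4sU-seq, SE). Normalized CPM are counts as a share of the library, in CPM, after scaling between libraries by TMM. The 4sU-seq libraries held 79403238 to 101884166 gene counts and the RNA-seq libraries 30962756 to 42479828. 1 library stood furthest apart: 4sU-seq KO replicate 2 differed from the other KO libraries by a median chi-square of 61.1 and 84.0 per gene, against 4.17 between KO replicates 1 and 3. 4sU-seq Ctrl replicate 2 deviated in the same direction across genes (correlation of deviations 0.95 with KO replicate 2). Its distance was smaller, at a median chi-square of 4.47 and 18.4 per gene from Ctrl replicates 1 and 3. Ctrl replicates 1 and 3 differed by 6.97, so replicates 1 and 2 were the closest Ctrl pair. By this measure Ctrl replicate 2 did not stand apart from both other Ctrl libraries. RNA-seq KO replicates 1 and 2 were the closest pair (mean chi-square of 2.02 per gene against 14.4 or more for all other RNA-seq pairs) and still differed by more than sampling noise, for which 1 would be the mean. Epithelial markers (12 of 12 in the tables) summed to 2875 to 2987 normalized CPM in KO and 3024 to 3434 in Ctrl RNA-seq, with CDX1 at 0 there and VIL1 and LGALS4 under 1 in all RNA-seq libraries. Of the other 9, CDH1, CLDN4 and CLDN7 were called higher in KO in RNA-seq, CDH1 also in 4sU-seq, and KRT18, KRT19, CDX2 and ELF3 lower in RNA-seq. Of the markers of other cell types, fibroblast genes (8 of 8 in the tables, 7 of them under 1 normalized CPM) summed to 10.7 to 12.3 normalized CPM in KO and 5.12 to 7.43 in Ctrl RNA-seq. Blood genes (5 of 7 in the tables) summed to at most 0.436 in KO and 0.227 in Ctrl. Endothelial genes (4 of 4) summed to 0.539 to 0.709 in KO and 0.194 to 0.448 in Ctrl. In 4sU-seq the endothelial genes summed to 12.7 to 12.9 normalized CPM in KO and 5.97 to 6.67 in Ctrl. The part of these sums in the results below was not tested, and in bulk samples fewer cells of a type and less RNA per cell cannot be told apart.

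The carriers differed widely in level. Among the 154 members with an exon length in GENCODE 29, RNA-seq levels in Ctrl ran between 0.264 and 184 normalized CPM per kb of exon, with a median of 6.26. The highest was SLC25A5, the ADP/ATP carrier of proliferating cells, at 178 per kb in KO and 184 per kb in Ctrl (log2 fold change -0.05 ± 0.06, edgeR adjusted p = 0.532); the tables also list 9 SLC25A5 pseudogenes, whose reads may be split with it. Next in level came SLC25A6, another ADP/ATP carrier, the zinc importer SLC39A6, SLC25A39, which carries glutathione into mitochondria, and the glutamine carrier SLC38A1. Of the 10 members highest per kb in Ctrl, 8 were called lower in KO in RNA-seq, none was called higher, and SLC25A5 and the lactate exporter SLC16A3 were not called. The calls of SLC25A6, SLC25A39 and SLC25A3 among these 8 did not hold by library size alone or ERCC scaling, and 42.1% of protein-coding genes with a mean of 100 counts or more were called lower. Ranking by the Ctrl level favours genes that are lower in KO, so this count is a description only. Ranked by KO and Ctrl together, SLC25A1 (36.5 per kb in KO and 34.0 in Ctrl, not called) took the place of SLC20A1 (24.6 and 38.5, called lower). At the count threshold that chose the members, SLC9A2 (mean of 111 counts), SLC18A2 (104) and SLC25A21 (103) were just inside, and SLC2A11 (99.5), SLC43A1 (99.5) and SLC10A5 (98) just outside. In 7 members 1 group alone was below a mean of 100 counts: SLC6A20, SLC25A21 and SLC18A2 in KO, and SLC9A2, SLC7A8, SLC6A16 and SLC22A15 in Ctrl.

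In RNA-seq the KO cells held more RNA of some carriers and less of others, in similar numbers. All 164 members were tested, and 46 were called higher and 53 lower in KO by edgeR's quasi-likelihood test (Benjamini-Hochberg adjusted p below 0.05 over all genes), while 65 were not called. Over all genes tested, 21.5% were called higher and 26.8% lower, and over protein-coding genes with the same minimum mean count 20.9% were called higher and 42.1% lower. The shares among the carriers were 28.05% higher and 32.3% lower, and their median log2 fold change was -0.02, against 0.00 for all genes and -0.10 for those protein-coding genes. Groups did not overlap, library by library, in 64.6% of the carriers, against 56.1% of all genes and 69.3% of those protein-coding genes. Most changes were small: 3 carriers were called more than 2-fold higher (SLC7A8, SLC9A2 and SLC6A16) and 2 more than 2-fold lower (SLC6A20 and SLC16A9). Of these 5, SLC16A9 alone had a mean of 100 counts or more in both groups. The others passed the choice of members through the group where they were high, so their number is a description only. SLC22A15, SLC18A2 and SLC25A21, also among the calls, passed in the same way. The split moved with the scaling: it was 46 higher and 26 lower when libraries were scaled to the ERCC spike-ins, and 81 higher and 27 lower by library size alone, a setting that shifts the median of all genes by 0.18 on the log2 scale. Under all 4 scalings tried, 70 carriers were called in 1 direction, 44 higher and 26 lower, and the members named below for RNA-seq are among these unless it is said otherwise.

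In 4sU-seq, where 157 members were tested, 7 were called higher and 20 lower in KO, and 130 were not called. The background was 12.6% higher and 6.98% lower over all genes tested and 6.16% higher and 9.16% lower over protein-coding genes with the same minimum RNA-seq mean; the carriers were at 4.46% and 12.7%. Groups did not overlap in 36.3% of the carriers, against 38.4% of all genes and 34.8% of those protein-coding genes. The higher genes were SLC7A8, SLC9A2, SLC44A1, SLC1A4, SLC45A1, SLC22A18 and SLC29A3. With ERCC scaling only SLC7A8 was called in this assay; the ERCC share of the 4sU-seq libraries was 0.0324, 0.0560 and 0.0230% in KO and 0.0347, 0.0457 and 0.0308% in Ctrl. Without the outlying KO replicate 2 and the Ctrl library of the same number, 30 carriers were called higher and 60 lower, against a background of 25.5% and 24.8% of all genes; this alternative was chosen after seeing the data. Single 4sU-seq calls rested on few libraries: of the 27, 6 held in all 6 runs without 1 library each (SLC7A8, SLC1A4, SLC6A20, SLC16A9, SLC16A14 and SLC7A6), and 20 were lost in 3 or more of these runs. All 27 were still called in the run without KO replicate 2 and in the run without both replicates numbered 2, so the losses came in runs that kept KO replicate 2.

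Wherever both assays made a call for a carrier, it was in the same direction. In both, 5 members were higher (SLC7A8, SLC9A2, SLC44A1, SLC22A18 and SLC29A3) and 15 were lower, and none was called in opposite directions. Shares of calls and signs common to both assays were not computed over all genes. The agreement described here can therefore not be read as particular to the carriers. Of these 20 genes, 14 lost the 4sU-seq call in 3 or more of the runs without 1 library. In RNA-seq alone 74 were called, and in 4sU-seq alone 7, beside 5 called in RNA-seq that could not be tested in 4sU-seq. A call in 1 assay alone does not show a difference between assays, which was tested apart and passed for 4 members. Of the 38 members called higher in RNA-seq and not in 4sU-seq, 34 had a positive 4sU-seq change, with a median log2 fold change of 0.34; of the 36 called lower, 33 had a negative one, with a median of -0.19. Across the 157 members the log2 changes of the assays had a Spearman correlation of 0.77, as a description over genes that share their libraries. Without both 4sU-seq libraries numbered 2, 20 members were higher and 38 lower in both assays. There the nucleoside carrier SLC29A2 was the 1 member called in opposite directions, lower in 4sU-seq (log2 fold change -0.56 ± 0.11, edgeR adjusted p = 0.00308) and higher in RNA-seq (0.20 ± 0.07), where its call did not hold under all 4 scalings.

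**Figure D1:**
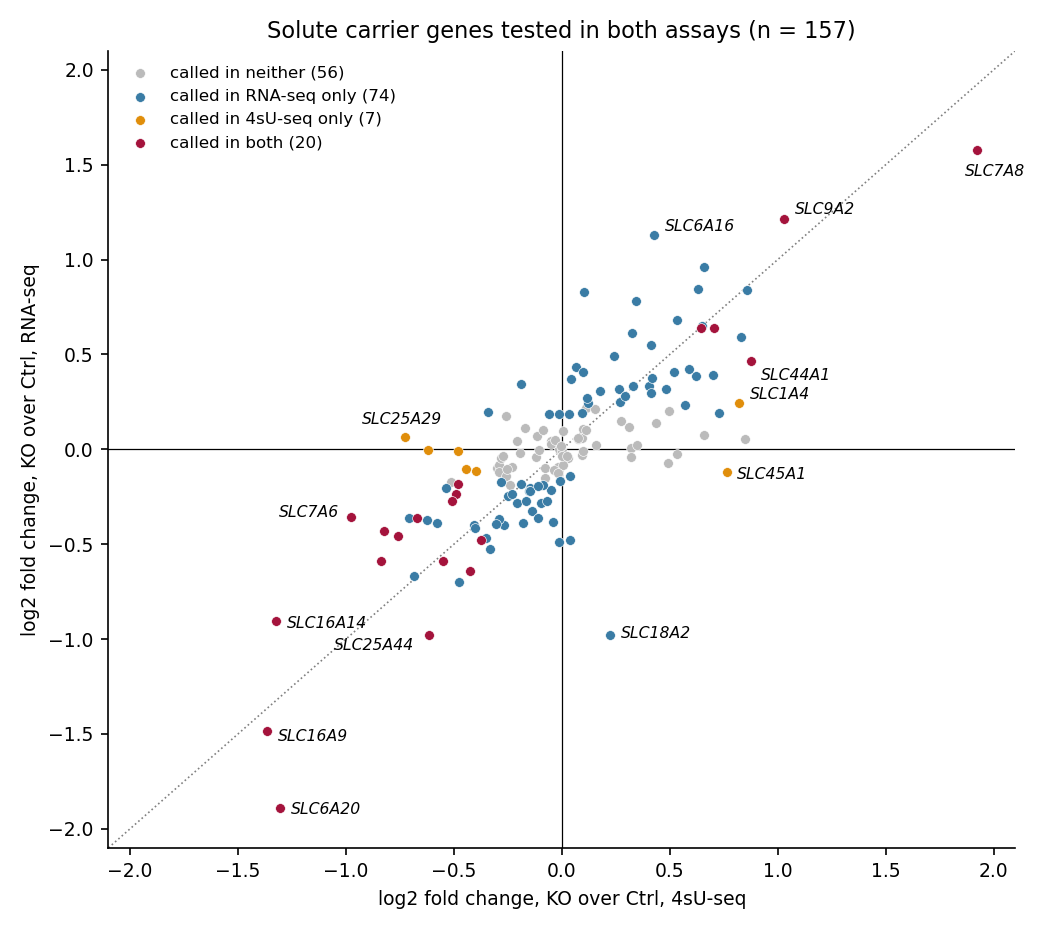
Each point is 1 of the 157 solute carrier genes tested in both assays, with its log2 fold change of KO over Ctrl in 4sU-seq (horizontal) and RNA-seq (vertical); colours give the calls at an edgeR adjusted p below 0.05 and the dotted line marks equal change. The 20 genes called in both lie in the upper right (5) and lower left (15) of the plot, with SLC7A8 highest and SLC6A20 and SLC16A9 lowest, while SLC18A2 and SLC45A1 lie off the line.

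SLC7A8 and SLC9A2 had the highest and SLC6A20 and SLC16A9 the lowest RNA-seq changes of all called members, and all were called in 4sU-seq too. Their RefSeq promoter windows are shown because of this rank in RNA-seq, and the genes were chosen after the values were seen. SLC7A8, SLC9A2 and SLC6A20 passed the choice of members through the group where they were high, so the rank is a description only. Each stretch (GRCh38.p14) holds 250 bases before to 50 after the transcript start that the RefSeq table uses, and 135 of the 164 members had an entry. That start lies 28.4 kb inside the GENCODE 29 span of SLC7A8 and 25.9 kb inside that of SLC16A9, at an internal transcript start, but within 1 kb of the outer start of SLC9A2 and SLC6A20. Of 127 members with both annotations, 22 had such a start over 1 kb inside the gene. Capitals mark an AP-1 motif (TGANTCA) or an E-box (CACGTG), searched on both strands; the motifs EGR (GCGTGGGCG), ARE (TGACNNNGC), CARE (TTGCATCA) and CRE (TGACGTCA) were searched too and had no match in these windows.
SLC7A8 (chr14:23155271-23155570, minus strand): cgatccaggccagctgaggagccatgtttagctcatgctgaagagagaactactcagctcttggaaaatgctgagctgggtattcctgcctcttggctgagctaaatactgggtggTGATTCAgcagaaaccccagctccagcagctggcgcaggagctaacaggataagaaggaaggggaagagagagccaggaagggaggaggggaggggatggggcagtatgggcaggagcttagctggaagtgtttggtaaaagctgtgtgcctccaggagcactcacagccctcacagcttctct
SLC9A2 (chr2:102619303-102619602, plus strand): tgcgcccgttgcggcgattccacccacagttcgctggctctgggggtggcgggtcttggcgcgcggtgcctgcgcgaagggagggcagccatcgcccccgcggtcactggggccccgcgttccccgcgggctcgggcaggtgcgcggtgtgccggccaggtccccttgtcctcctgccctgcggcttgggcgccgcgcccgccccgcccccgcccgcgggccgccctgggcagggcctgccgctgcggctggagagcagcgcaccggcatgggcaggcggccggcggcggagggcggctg
SLC6A20 (chr3:45796487-45796786, minus strand): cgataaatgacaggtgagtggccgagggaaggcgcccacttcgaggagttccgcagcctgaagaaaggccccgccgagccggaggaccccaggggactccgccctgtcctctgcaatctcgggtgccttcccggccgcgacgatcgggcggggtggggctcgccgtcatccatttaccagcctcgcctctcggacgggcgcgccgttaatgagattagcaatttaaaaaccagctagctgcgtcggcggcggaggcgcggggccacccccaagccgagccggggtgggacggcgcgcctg
SLC16A9 (chr10:59710030-59710329, minus strand): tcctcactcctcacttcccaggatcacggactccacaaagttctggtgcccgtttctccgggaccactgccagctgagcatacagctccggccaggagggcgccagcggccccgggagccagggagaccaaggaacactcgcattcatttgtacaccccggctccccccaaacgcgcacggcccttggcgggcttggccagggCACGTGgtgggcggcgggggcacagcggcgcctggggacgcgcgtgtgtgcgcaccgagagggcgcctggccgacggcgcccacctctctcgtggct
The SLC7A8 window held 1 AP-1 motif, starting 134 bases before this internal start, and the SLC16A9 window 1 E-box, starting 47 bases before its internal start. Neither motif occurred in the other windows of these 4. Over all 27305 promoters 7.76% held the AP-1 motif and 7.43% the E-box, and over the 135 carriers 5.93% and 14.1% did. By RNA-seq call, the AP-1 motif was in 4 of 37 promoters of higher, 3 of 43 of lower and 1 of 55 of uncalled carriers, and the E-box in 5, 8 and 6 of these. The SLC7A8 window had a G+C content of 55%, below the 80% of SLC9A2, 68% of SLC6A20 and 69.7% of SLC16A9, and the median of all member promoters was 67.7%. A match is a description of the letters in this window and no evidence of binding.

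SLC7A8, a neutral amino acid exchanger that works as a pair with the SLC3A2 heavy chain, lies at chr14:23125295-23183674, minus strand (hg38). In 4sU-seq it had 11.8, 13.7 and 10.5 normalized CPM in the KO libraries and 3.15, 3.39 and 2.93 in the Ctrl libraries. In RNA-seq SLC7A8 had 4.72, 4.33 and 5.25 normalized CPM in the KO libraries and 1.72, 1.34 and 1.68 in the Ctrl libraries. All KO libraries were above all Ctrl libraries in both assays, and KO replicate 2 did not stand apart for this gene. The log2 fold change was 1.92 ± 0.15 in 4sU-seq (SE, edgeR adjusted p = 9.75e-04) and 1.58 ± 0.14 in RNA-seq (edgeR adjusted p = 1.21e-06), and both calls held under all 14 alternatives run for each.

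SLC9A2, a sodium-proton exchanger of epithelial apical membranes, lies at chr2:102619707-102711318, plus strand. Its RNA-seq values were 4.20, 4.57 and 4.25 normalized CPM in the KO libraries and 2.00, 1.73 and 1.88 in the Ctrl libraries, a separation without overlap. For SLC9A2 the log2 fold change in RNA-seq was 1.21 ± 0.13 (SE, edgeR adjusted p = 4.44e-06). In 4sU-seq it had 9.82, 5.42 and 10.9 normalized CPM in the KO libraries and 4.16, 3.80 and 4.84 in the Ctrl libraries, with KO replicate 2 close to the Ctrl libraries. For SLC9A2 the log2 fold change in 4sU-seq was 1.03 ± 0.27 (SE, edgeR adjusted p = 0.0438). The 4sU-seq call was lost under 6 of 14 alternatives, including ERCC scaling and each of 5 runs without 1 library, at an adjusted p of up to 0.259. SLC44A1, which carries choline, had 182, 133 and 202 normalized CPM in the KO libraries and 88.8, 85.1 and 109 in the Ctrl libraries in 4sU-seq (0.87 ± 0.19 on the log2 scale, edgeR adjusted p = 0.0217). In RNA-seq it had 124, 123 and 129.7 normalized CPM in the KO libraries and 83.9, 92.1 and 97.1 in the Ctrl libraries. For SLC44A1 the log2 fold change in RNA-seq was 0.46 ± 0.06 (SE, edgeR adjusted p = 4.44e-05). Its 4sU-seq groups did not overlap, but KO replicate 2 was the lowest of the KO libraries, and this call too was lost under 6 of 14 alternatives.

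SLC6A20, a sodium-coupled carrier of proline and related imino acids, lies at chr3:45755450-45796535, minus strand. It had 2.35, 2.98 and 2.52 normalized CPM in the KO libraries and 11.3, 9.10 and 8.65 in the Ctrl libraries in RNA-seq. In 4sU-seq SLC6A20 had 6.22, 6.05 and 5.83 normalized CPM in the KO libraries and 15.5, 15.9 and 13.3 in the Ctrl libraries. The KO values were the lower in all libraries, and the 3 KO 4sU-seq libraries lay close together. It showed the largest decrease of the set in RNA-seq (log2 fold change -1.89 ± 0.13 (SE), edgeR adjusted p = 9.85e-08), and in 4sU-seq the log2 fold change was -1.30 ± 0.13 (edgeR adjusted p = 0.0017), a call lost only under ERCC scaling.

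Of the monocarboxylate transporter family, SLC16A9 at chr10:59650761-59736002, minus strand, which carries carnitine and creatine, had 15.1, 15.9 and 16.3 normalized CPM in the KO libraries and 43.3, 43.4 and 45.9 in the Ctrl libraries in RNA-seq. In 4sU-seq it had 15.4, 11.2 and 18.2 normalized CPM in the KO libraries and 38.5, 34.2 and 43.1 in the Ctrl libraries. Its groups were far apart in both assays, with log2 fold changes of -1.49 ± 0.06 in RNA-seq (edgeR adjusted p = 4.58e-10) and -1.37 ± 0.20 in 4sU-seq (edgeR adjusted p = 0.00702). SLC16A14, a less studied member of the same family, had 24.2, 23.4 and 24.1 normalized CPM in the KO libraries and 43.5, 44.6 and 46.1 in the Ctrl libraries in RNA-seq. In 4sU-seq SLC16A14 had 21.3, 24.5 and 26.4 normalized CPM in the KO libraries and 61.05, 58.7 and 61.1 in the Ctrl libraries. It fell in both, by 0.90 ± 0.05 in RNA-seq and 1.32 ± 0.12 in 4sU-seq on the log2 scale (SE, edgeR adjusted p = 2.86e-08 and 0.00156). Both 4sU-seq calls were lost only under ERCC scaling.

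**Figure D2:**
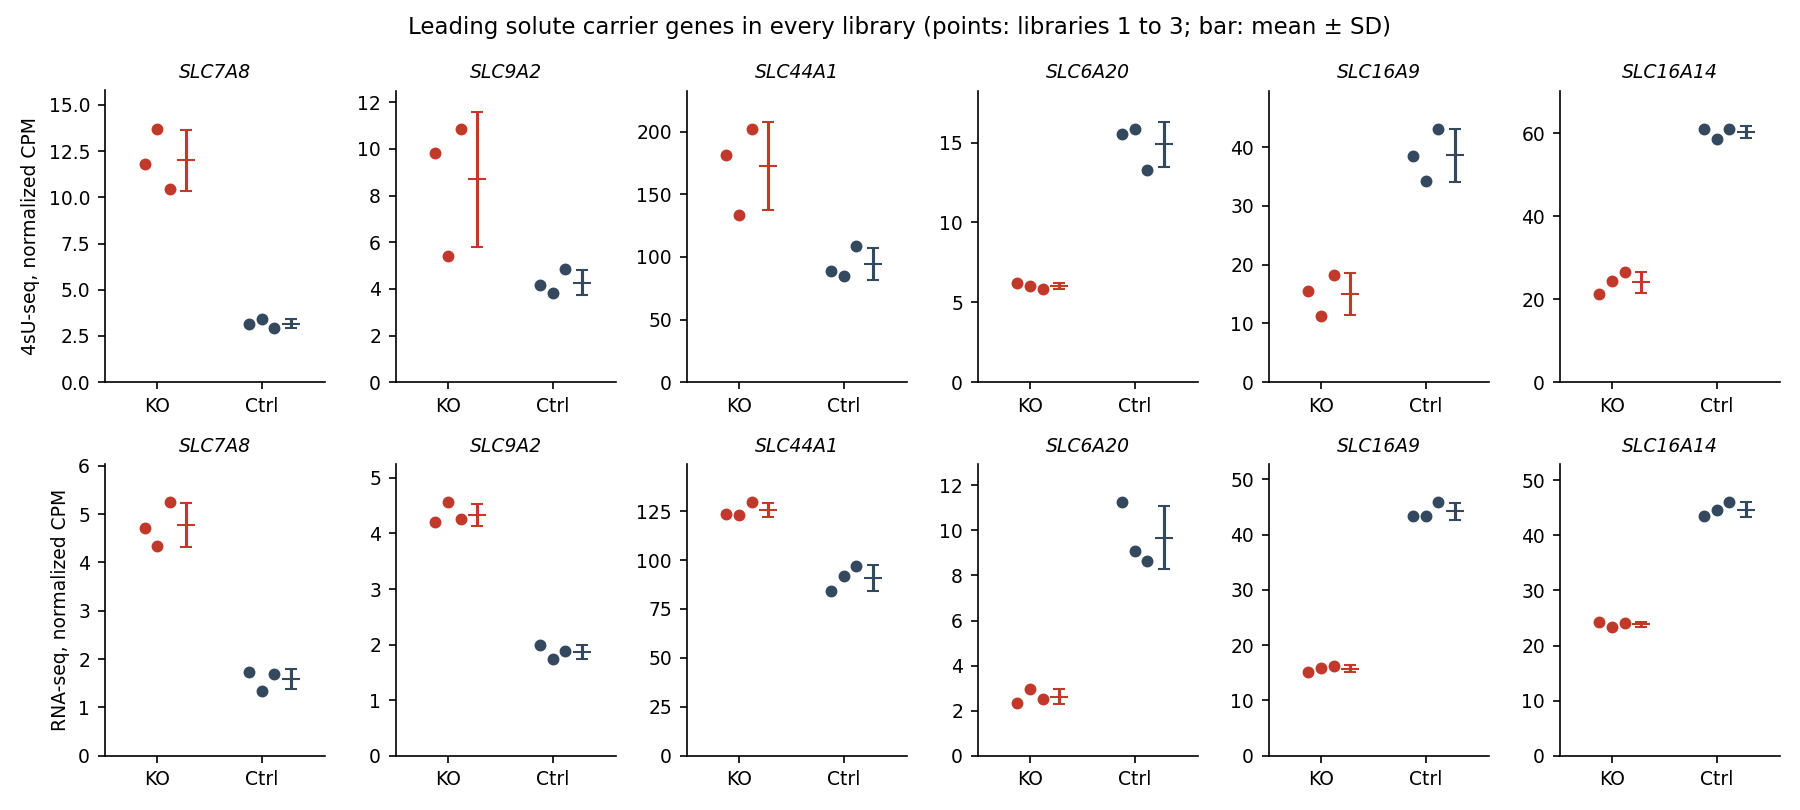
Normalized CPM of 6 leading solute carrier genes in 4sU-seq (upper row) and RNA-seq (lower row); points are the 3 KO and 3 Ctrl libraries of each assay, bars the mean ± SD, and each axis starts at 0. KO points lie above all Ctrl points for SLC7A8, SLC9A2 and SLC44A1 and below them for SLC6A20, SLC16A9 and SLC16A14, and the second KO 4sU-seq library is the lowest of its group for SLC9A2, SLC44A1 and SLC16A9.

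Beside the class counts that follow stand, for protein-coding genes with the same minimum mean, 20.9% higher and 42.1% lower in RNA-seq and 6.16% higher and 9.16% lower in 4sU-seq, with median log2 fold changes of -0.10 and -0.06. The RNA-seq class counts include SLC7A8, SLC6A16, SLC6A20, SLC9A2, SLC25A21, SLC22A15 and SLC18A2. These passed the choice of members through the group where they were high, so the counts of their classes are a description only. By kind of substrate, the carriers of amino acids and amines (21 members) went both ways in RNA-seq, with 6 higher and 7 lower, of which 6 and 3 held under all 4 scalings. In 4sU-seq 2 were higher and 4 lower. Beside SLC7A8, SLC1A3, a plasma membrane glutamate and aspartate carrier, rose in RNA-seq with 22.4, 22.01 and 22.9 normalized CPM in the KO libraries and 12.6, 12.7 and 12.5 in the Ctrl libraries. For SLC1A3 the log2 fold change in RNA-seq was 0.83 ± 0.06 (SE, edgeR adjusted p = 1.41e-07). In 4sU-seq its groups overlapped, with 20.8, 10.9 and 23.8 normalized CPM in the KO libraries and 15.7, 14.1 and 21.9 in the Ctrl libraries (log2 fold change 0.10 ± 0.32, edgeR adjusted p = 0.857); 56.0% of its exon bases lie under other annotated genes. SLC6A16, an orphan member of the neurotransmitter carrier family, rose in RNA-seq, at 4.71 ± 0.548 normalized CPM in KO and 2.17 ± 0.277 in Ctrl (SD, n = 3 each; log2 fold change 1.13 ± 0.14 (SE), edgeR adjusted p = 1.82e-05), and was 0.43 ± 0.13 in 4sU-seq (edgeR adjusted p = 0.0716). SLC1A4, a carrier of alanine, serine and cysteine, was called in 4sU-seq and not in RNA-seq. In 4sU-seq it had 24.1, 22.1 and 21.2 normalized CPM in the KO libraries and 13.6, 12.01 and 12.5 in the Ctrl libraries (0.82 ± 0.12 on the log2 scale, edgeR adjusted p = 0.00632). In RNA-seq SLC1A4 had 5.48, 5.44 and 6.37 normalized CPM in the KO libraries and 5.22, 4.78 and 4.50 in the Ctrl libraries. For SLC1A4 the log2 fold change in RNA-seq was 0.24 ± 0.11 (SE, edgeR adjusted p = 0.0743). The difference between assays did not pass for SLC1A4 (0.58 ± 0.15, edgeR adjusted p = 0.0773) or SLC1A3 (-0.71 ± 0.36, edgeR adjusted p = 0.374). The glutamine carrier SLC38A1, an abundant member, had 385, 384 and 413 normalized CPM in the KO libraries and 519, 578 and 564 in the Ctrl libraries in RNA-seq, lower in all KO libraries (log2 fold change -0.49 ± 0.06 (SE), edgeR adjusted p = 1.83e-05), with overlapping groups in 4sU-seq (log2 fold change -0.01 ± 0.16, edgeR adjusted p = 0.966). Among the lower genes of these families, some carry other substrates: SLC43A3 carries purine nucleobases (RNA-seq -0.59 ± 0.06, 4sU-seq -0.84 ± 0.21, the last lost under 7 of 14 alternatives), SLC6A6 taurine (RNA-seq -0.27 ± 0.06, 4sU-seq -0.51 ± 0.12, the last lost in 5 of 6 runs without 1 library) and SLC6A8 creatine (RNA-seq -0.27 ± 0.05). The calls of SLC6A6, SLC6A8 and SLC43A2 in RNA-seq did not hold under all 4 scalings.

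The mitochondrial carriers of the SLC25 family, which line the inner mitochondrial membrane, were the largest class (36 members). In RNA-seq 4 were higher and 17 lower (47.2%, near the 42.1% of those protein-coding genes), and 4 and 7 under all 4 scalings. In 4sU-seq none was higher and 6 were lower, of 35 tested. The median log2 fold change was -0.12 in RNA-seq and -0.09 in 4sU-seq, against 0.00 and 0.05 over all genes and -0.10 and -0.06 over those protein-coding genes. SLC25A44, which imports branched-chain amino acids, fell most, with 28.6, 27.7 and 27.2 normalized CPM in the KO libraries and 58.8, 50.98 and 54.9 in the Ctrl libraries in RNA-seq. For SLC25A44 in RNA-seq the log2 fold change was -0.98 ± 0.06 (SE, edgeR adjusted p = 4.58e-08). In 4sU-seq it had 35.00, 43.3 and 35.5 normalized CPM in the KO libraries and 57.00, 62.4 and 55.04 in the Ctrl libraries. For SLC25A44 the log2 fold change in 4sU-seq was -0.62 ± 0.13 (SE, edgeR adjusted p = 0.022). The groups stood clear of each other in both assays, but the 4sU-seq call was lost under 7 of 14 alternatives, among them 5 of the 6 runs without 1 library. The glutamate carrier SLC25A22 had 97.3, 100.4 and 98.1 normalized CPM in the KO libraries and 164, 156 and 160.5 in the Ctrl libraries in RNA-seq (log2 fold change -0.70 ± 0.05 (SE), edgeR adjusted p = 2.73e-07), but in 4sU-seq its KO replicate 2, at 56.1, lay within the Ctrl range of 43.9 to 59.2 (log2 fold change -0.47 ± 0.32, edgeR adjusted p = 0.348). SLC25A15 (ornithine) and SLC25A33 (pyrimidine nucleotides) were lower in both assays, with RNA-seq log2 fold changes of -0.43 ± 0.06 and -0.36 ± 0.06 and 4sU-seq ones of -0.82 ± 0.18 and -0.67 ± 0.10, the 4sU-seq calls being lost under 6 of 14 alternatives for SLC25A15 and 3 for SLC25A33. The 4 higher members were SLC25A36, another pyrimidine nucleotide carrier (158, 167 and 174 normalized CPM in the KO libraries and 87.3, 115 and 116 in the Ctrl libraries in RNA-seq, log2 fold change 0.65 ± 0.09 (SE), edgeR adjusted p = 5.96e-05), the glutathione carrier SLC25A40 (0.49 ± 0.08), SLC25A46, which acts in the dynamics of the outer membrane (0.39 ± 0.09), and the dicarboxylate carrier SLC25A10 (0.37 ± 0.06). The pair of pyrimidine nucleotide carriers, SLC25A33 and SLC25A36, thus moved in opposite directions in RNA-seq. The abundant SLC25A3 (phosphate), SLC25A6 and SLC25A39 were called lower by TMM, at -0.22, -0.17 and -0.19, but not by library size alone or ERCC scaling, and SLC25A6 changed sign by library size alone.

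Carriers of bicarbonate, chloride, sodium and protons (17 members) had 3 higher and 11 lower genes in RNA-seq (64.7% lower, against 42.1% of those protein-coding genes), but 3 and 5 under all 4 scalings. The median log2 fold change was -0.22, against -0.10. In 4sU-seq 1 was higher (SLC9A2) and 1 lower, the SLC12A8 gene (-0.49 ± 0.11, lost under 5 of 14 alternatives). SLC12A2, the sodium-potassium-chloride cotransporter that loads epithelial cells with chloride, had 131, 131 and 139.7 normalized CPM in the KO libraries and 173, 203 and 201 in the Ctrl libraries in RNA-seq. For SLC12A2 the log2 fold change in RNA-seq was -0.52 ± 0.07 (SE, edgeR adjusted p = 2.71e-05). Its 4sU-seq groups overlapped, with KO replicate 2 at 50.7 normalized CPM and the other KO libraries at 99.3 and 113. SLC9A7, an exchanger of the trans-Golgi network, fell in RNA-seq by 0.48 ± 0.05 on the log2 scale and was at 0.04 ± 0.14 in 4sU-seq (edgeR adjusted p = 6.51e-06 in RNA-seq and 0.881 in 4sU-seq). SLC4A2, an anion exchanger, had 248, 252 and 255 normalized CPM in the KO libraries and 315, 311 and 321 in the Ctrl libraries in RNA-seq. For SLC4A2 the log2 fold change in RNA-seq was -0.33 ± 0.05 (SE, edgeR adjusted p = 1.19e-04). SLC24A1, a sodium-calcium exchanger that also moves potassium, was higher in RNA-seq (0.33 ± 0.09). The calls of SLC4A3, SLC4A7, SLC9A8, SLC12A8 and SLC12A9 did not hold under all 4 scalings.

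Carriers of zinc, iron, copper, magnesium and manganese (23 members) held 8 higher and 4 lower genes in RNA-seq, 7 and 2 under all 4 scalings, and 1 lower gene of 21 tested in 4sU-seq. The zinc importers SLC39A6 and SLC39A10, which form a complex with each other, went opposite ways. SLC39A10 had 196, 195 and 208 normalized CPM in the KO libraries and 115, 132 and 151 in the Ctrl libraries in RNA-seq. For SLC39A10 the log2 fold change in RNA-seq was 0.59 ± 0.08 (SE, edgeR adjusted p = 5.18e-05). SLC39A6 had 183, 182 and 195 normalized CPM in the KO libraries and 246, 259.6 and 275 in the Ctrl libraries in RNA-seq (log2 fold change -0.48 ± 0.06 (SE), edgeR adjusted p = 1.94e-05) and was the gene lower in 4sU-seq (-0.37 ± 0.10, edgeR adjusted p = 0.0389), a call lost under 7 of 14 alternatives at an adjusted p of up to 0.918. In 4sU-seq SLC39A10 overlapped between groups, with KO replicate 2 at 51.3 normalized CPM and Ctrl replicate 3 at 60.6 (log2 fold change 0.83 ± 0.31 (SE), edgeR adjusted p = 0.111); without both libraries numbered 2 it was called higher (0.92 ± 0.14, edgeR adjusted p = 9.72e-04). SLC39A14, an importer of zinc, iron and manganese, fell in RNA-seq (183, 189 and 186 normalized CPM in the KO libraries and 242, 247 and 254 in the Ctrl libraries; log2 fold change -0.41 ± 0.05 (SE), edgeR adjusted p = 2.10e-05). SLC39A13, which acts in the secretory pathway, and SLC39A7, which releases zinc from the endoplasmic reticulum, rose, by 0.55 ± 0.07 and 0.32 ± 0.07 on the log2 scale.

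Sugar transporter families (13 members) had 7 higher and 1 lower gene in RNA-seq, and the same counts under all 4 scalings. SLC50A1, the only human SWEET family sugar carrier, had 37.4, 38.1 and 36.8 normalized CPM in the KO libraries and 23.7, 23.3 and 22.9 in the Ctrl libraries in RNA-seq (log2 fold change 0.68 ± 0.05 (SE), edgeR adjusted p = 3.13e-07), and its 4sU-seq groups did not overlap either, though the test was not passed (0.53 ± 0.22, edgeR adjusted p = 0.14). SLC2A6, a lysosomal member of the glucose transporter family, and SLC2A13, which carries myo-inositol, were higher by 0.43 ± 0.08 and 0.39 ± 0.08 on the log2 scale in RNA-seq. The lower gene, SLC5A6, carries biotin and pantothenate and not sugar, with 64.8, 65.9 and 64.4 normalized CPM in the KO libraries and 87.1, 83.8 and 84.2 in the Ctrl libraries in RNA-seq. For SLC5A6 the log2 fold change in RNA-seq was -0.39 ± 0.05 (SE, edgeR adjusted p = 4.96e-05). Nucleotide sugar and nucleoside carriers (9 members) had 5 higher and 2 lower genes in RNA-seq, 4 and 1 under all 4 scalings. The plasma membrane nucleoside carrier SLC29A1 had 90.8, 94.5 and 94.2 normalized CPM in the KO libraries and 158, 142 and 144 in the Ctrl libraries in RNA-seq (log2 fold change -0.67 ± 0.06 (SE), edgeR adjusted p = 1.09e-06), whereas its lysosomal relative SLC29A3 had 8.07, 7.41 and 8.11 normalized CPM in the KO libraries and 5.81, 4.27 and 4.99 in the Ctrl libraries. For SLC29A3 the log2 fold change in RNA-seq was 0.64 ± 0.11 (SE, edgeR adjusted p = 3.51e-04). SLC29A3 was also higher in 4sU-seq (0.64 ± 0.16, edgeR adjusted p = 0.0352, lost under 6 of 14 alternatives), and SLC29A1 was at -0.68 ± 0.25 there without passing (edgeR adjusted p = 0.109). The Golgi carriers SLC35A1 (CMP-sialic acid) and SLC35A3 (UDP-N-acetylglucosamine) rose in RNA-seq by 0.31 ± 0.08 and 0.29 ± 0.09 on the log2 scale, with 64.8% and 99.2% of their exon bases under other annotated genes.

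**Figure D3:**
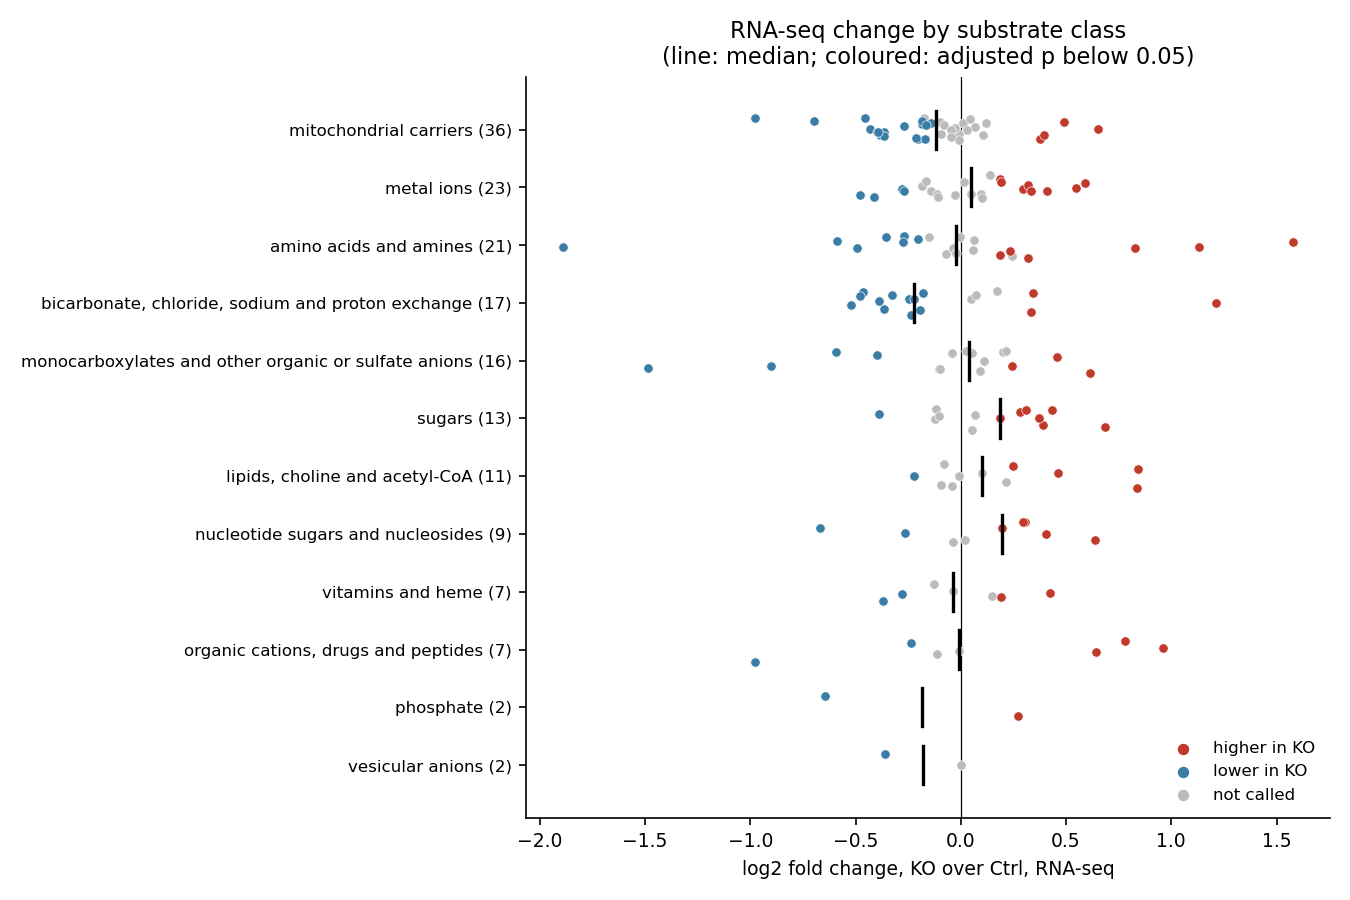
Log2 fold change of KO over Ctrl in RNA-seq for each of the 164 solute carrier genes, one row per substrate class with its number of genes; the vertical line is the class median and coloured points have an edgeR adjusted p below 0.05. The ion exchange class (median -0.22) and the mitochondrial carriers (-0.12, beside -0.10 for protein-coding genes with the same minimum mean) lie mostly left of 0, the sugar (0.19) and nucleotide sugar (0.20) families mostly right of it, and both directions occur in 11 of the 12 classes.

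Lipid, choline and acetyl-CoA carriers (11 members) had 4 higher and 1 lower gene in RNA-seq, 4 and 0 under all 4 scalings. Beside SLC44A1, its relative SLC44A5 (0.84 ± 0.12) and the fatty acid transport protein SLC27A6 were higher, the last with 13.9, 13.4 and 13.7 normalized CPM in the KO libraries and 7.27, 7.64 and 7.97 in the Ctrl libraries in RNA-seq. For SLC27A6 the log2 fold change in RNA-seq was 0.84 ± 0.07 (SE, edgeR adjusted p = 8.01e-07). SLC27A6 did not overlap between groups in 4sU-seq either, without passing the test (0.63 ± 0.20, edgeR adjusted p = 0.077). Organic cation, drug and peptide carriers (7 members) had 3 higher genes (SLC22A31 0.96 ± 0.12, SLC22A15 0.78 ± 0.17 and SLC22A18 0.64 ± 0.11, whose 4sU-seq call was lost under 6 of 14 alternatives) and 2 lower (SLC18A2 and SLC22A23), of which 3 and 1 held under all 4 scalings. SLC18A2, the vesicular monoamine transporter, had 2.24, 1.80 and 1.93 normalized CPM in the KO libraries and 3.99, 3.37 and 4.37 in the Ctrl libraries in RNA-seq (-0.98 ± 0.15 on the log2 scale, edgeR adjusted p = 9.14e-05). In 4sU-seq SLC18A2 had 11.9, 6.19 and 13.2 normalized CPM in the KO libraries and 8.58, 7.16 and 11.1 in the Ctrl libraries, where the groups overlapped. For SLC18A2 the log2 fold change in 4sU-seq was 0.22 ± 0.31 (SE, edgeR adjusted p = 0.665). The difference between assays did not pass for it (1.22 ± 0.40, edgeR adjusted p = 0.145). It had a mean of 104 RNA-seq counts, and 60.4% of its exon bases lie under other genes. The carnitine carrier SLC22A5 and the lysosomal histidine and peptide carrier SLC15A4 were called lower in 4sU-seq alone (-0.48 ± 0.12 for SLC22A5, lost under 7 of 14 alternatives, and -0.40 ± 0.11 for SLC15A4, lost under 8). The difference between assays did not pass for SLC22A5 (-0.48 ± 0.14, edgeR adjusted p = 0.0968) or SLC15A4 (-0.28 ± 0.10, edgeR adjusted p = 0.198).

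Of the 2 sodium-coupled phosphate importers, SLC20A1 fell and SLC20A2 rose in RNA-seq. SLC20A1 had 134, 137 and 141 normalized CPM in the KO libraries and 215, 216 and 213 in the Ctrl libraries in RNA-seq (-0.64 ± 0.05 on the log2 scale, edgeR adjusted p = 4.63e-07). SLC20A2 had 52.4, 52.3 and 53.7 normalized CPM in the KO libraries and 44.99, 42.3 and 43.8 in the Ctrl libraries. For SLC20A2 the log2 fold change in RNA-seq was 0.27 ± 0.05 (SE, edgeR adjusted p = 7.72e-04). SLC20A1 was called lower in 4sU-seq too (-0.42 ± 0.10, edgeR adjusted p = 0.0301), a call lost under 7 of 14 alternatives at an adjusted p of up to 0.854, while SLC20A2 did not pass there (0.12 ± 0.13). Of the 7 vitamin and heme carriers, SLC19A1, the reduced folate carrier, fell in RNA-seq (101, 109.6 and 104 normalized CPM in the KO libraries and 138, 133 and 136 in the Ctrl libraries; log2 fold change -0.37 ± 0.06 (SE), edgeR adjusted p = 9.78e-05), and the riboflavin carrier SLC52A3 rose (0.42 ± 0.08), as did the thiamine carrier SLC19A2 (0.19 ± 0.06). The vitamin C carrier SLC23A2 was called lower (-0.28 ± 0.06), but not under ERCC scaling or library size alone. Neither lower nor higher calls were made for this class in 4sU-seq. The vesicular nucleotide carrier SLC17A9 was lower in RNA-seq (-0.36 ± 0.08), but not under those same scalings. Among the 16 carriers of monocarboxylates, bile acids and sulfate, RNA-seq gave 3 higher and 4 lower genes, with the same counts under all 4 scalings, and 4sU-seq 4 lower. The lactate carrier SLC16A1 was lower in 4sU-seq (149, 134 and 166 normalized CPM in the KO libraries and 195, 196 and 219.7 in the Ctrl libraries; log2 fold change -0.45 ± 0.12 (SE), edgeR adjusted p = 0.0414) with overlapping groups in RNA-seq (-0.10 ± 0.08, edgeR adjusted p = 0.292), and its 4sU-seq call was lost in 4 of 6 runs without 1 library. For SLC16A1 the difference between assays did not pass (-0.33 ± 0.16, edgeR adjusted p = 0.337). SLC16A13 was the highest of this class in RNA-seq (0.61 ± 0.12), and SLC10A4 was lower in both assays (-0.59 ± 0.07 in RNA-seq and -0.55 ± 0.13 in 4sU-seq, where the call was lost under 7 of 14 alternatives).

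The KO effect differed between 4sU-seq and RNA-seq, by the interaction of genotype and assay, for 4 of 157 members: 1 with a higher effect in 4sU-seq and 3 with a lower one. The background was 1.27% higher and 1.24% lower over all genes tested, and the carriers were at 0.637% and 1.91%. SLC45A1, a sugar carrier, had 16.7, 20.1 and 14.1 normalized CPM in the KO libraries and 10.4, 10.4 and 9.14 in the Ctrl libraries in 4sU-seq. In RNA-seq SLC45A1 had 5.07, 5.51 and 5.06 normalized CPM in the KO libraries and 6.33, 5.07 and 5.54 in the Ctrl libraries, where the groups overlapped (difference 0.87 ± 0.18 on the log2 scale, SE, edgeR adjusted p = 0.0323). SLC25A29, a mitochondrial carrier of basic amino acids, had 16.6, 18.9 and 15.9 normalized CPM in the KO libraries and 29.4, 29.2 and 26.4 in the Ctrl libraries in 4sU-seq. In RNA-seq SLC25A29 had 21.7, 24.3 and 22.7 normalized CPM in the KO libraries and 21.5, 22.5 and 21.7 in the Ctrl libraries (difference -0.79 ± 0.12, edgeR adjusted p = 0.0102). New RNA of this gene was lower in all KO libraries while its steady-state RNA was not called. SLC7A6, an exchanger of basic and neutral amino acids, had 46.3, 58.2 and 49.05 normalized CPM in the KO libraries and 101, 106 and 95.8 in the Ctrl libraries in 4sU-seq. In RNA-seq SLC7A6 had 44.3, 48.3 and 46.8 normalized CPM in the KO libraries and 61.8, 59.7 and 56.9 in the Ctrl libraries, so it was lower in both and more so in 4sU-seq, with an RNA-seq call lost under ERCC scaling (difference -0.62 ± 0.12, edgeR adjusted p = 0.0278). SLC27A5, a bile acid and fatty acid CoA ligase of the liver, had 24.8, 30.6 and 23.2 normalized CPM in the KO libraries and 41.7, 39.6 and 39.3 in the Ctrl libraries in 4sU-seq. In RNA-seq SLC27A5 had 10.2, 10.00 and 9.13 normalized CPM in the KO libraries and 9.83, 9.76 and 9.91 in the Ctrl libraries (difference -0.61 ± 0.14, edgeR adjusted p = 0.0417). Other annotated genes cover 82.2% of the exon bases of SLC7A6, 44.1% of SLC25A29, 20.1% of SLC27A5 and none of SLC45A1, and the strand setting of the counting is not given, so reads of overlapping genes cannot be told apart. The difference for SLC25A29 was lost only under ERCC scaling, and those of SLC45A1, SLC27A5 and SLC7A6 under 14, 15 and 13 of 21 alternatives.

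**Figure D4:**
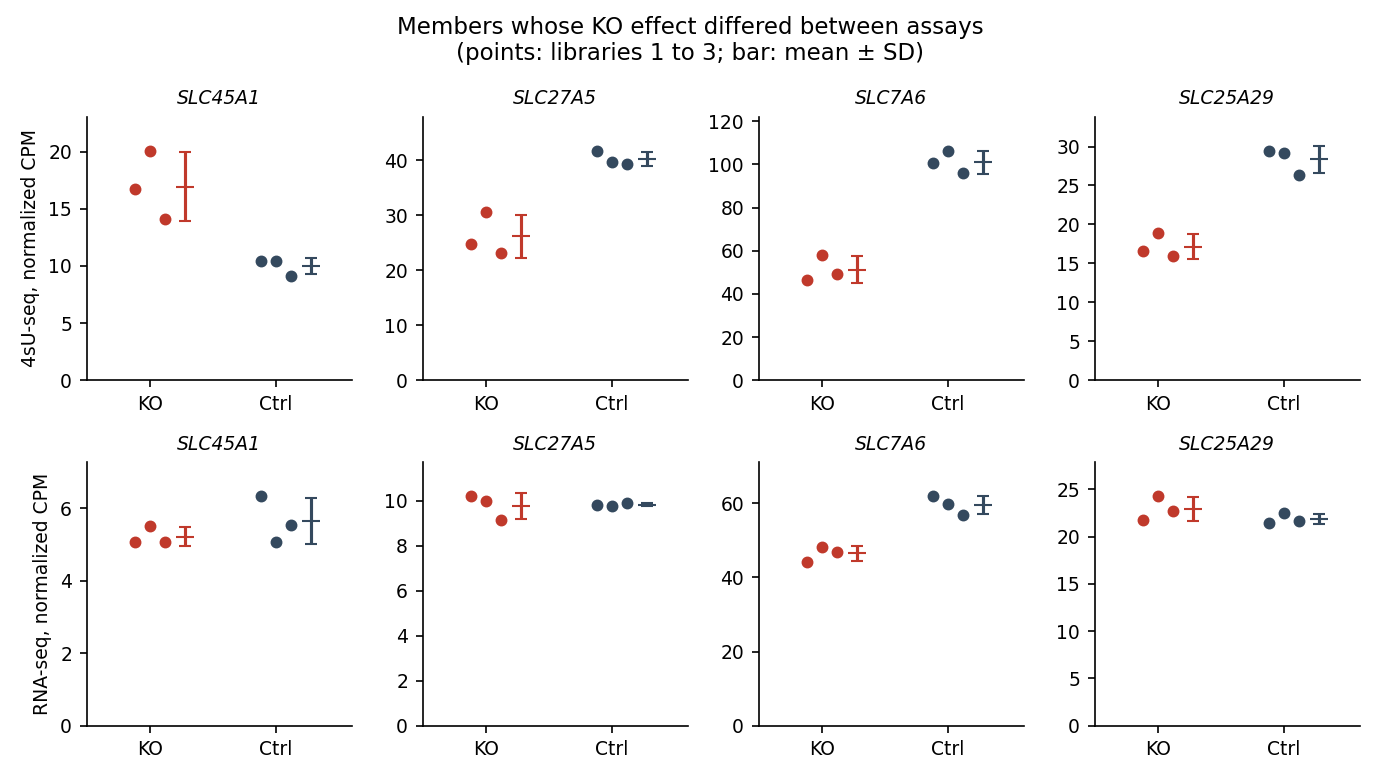
Normalized CPM in 4sU-seq (upper row) and RNA-seq (lower row) of the 4 solute carrier genes whose KO effect differed between assays; points are the 3 KO and 3 Ctrl libraries, bars the mean ± SD, and each axis starts at 0. In 4sU-seq KO lies above Ctrl for SLC45A1 and below it for SLC27A5, SLC7A6 and SLC25A29 without overlap, while in RNA-seq the groups overlap for all but SLC7A6.

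The level in 4sU-seq relative to RNA-seq was higher for carriers with longer genes. In Ctrl, the log2 ratio of normalized CPM had a median of -0.91 for 22 members that span under 10 kb, 0.02 for 37 of 10 to 30 kb, 0.60 for 63 of 30 to 100 kb and 1.10 for 25 above 100 kb (GENCODE 29). The Spearman correlation of the ratio with the span over these 147 members was 0.50, as a description, and the assays were prepared and counted apart, so the ratio only ranks genes. The log2 change in KO had a median of -0.01, -0.19, -0.05 and 0.12 in 4sU-seq, and -0.04, -0.11, -0.03 and 0.19 in RNA-seq, in the same order of span.

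**Figure D5:**
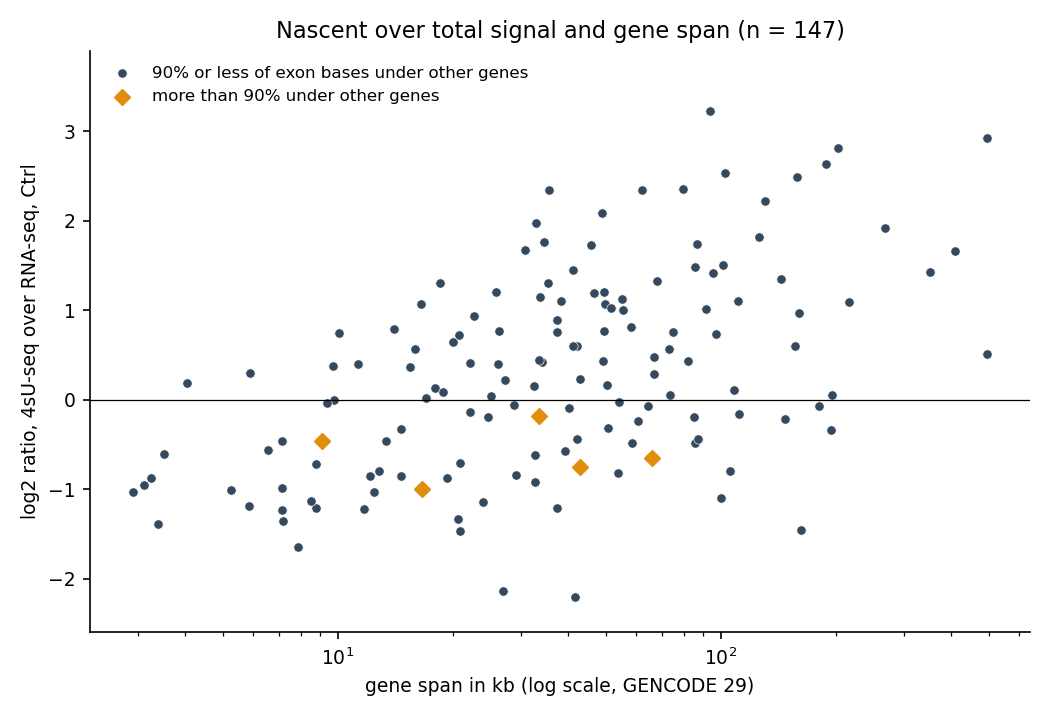
Log2 ratio of mean normalized CPM in 4sU-seq over RNA-seq in Ctrl against gene span in kb (log scale) for the 147 solute carrier genes tested in both assays that have a GENCODE 29 span. The ratio has a median of -0.91 under 10 kb and 1.10 above 100 kb, and the 5 genes with more than 90% of exon bases under other genes (diamonds) all lie below 0.

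7 members could not be tested in 4sU-seq. SLC16A6, SLC25A51 (the mitochondrial NAD carrier), SLC26A1, SLC30A4, SLC35A4, SLC39A3 and SLC5A3 had at most 1 count in any 4sU-seq library, although their RNA-seq means were 233, 806, 128, 243, 1855, 1390 and 1785 counts. For all of these, 97.7% to 100% of the exon bases lie under other genes of GENCODE 29. Of the 12 members with more than 90% of exon bases so covered, 7 were these and the other 5 (SLC25A32, SLC31A1, SLC33A1, SLC35A3 and SLC39A1) were counted; of the members below 90% none was left untested. Whether the overlap accounts for the missing counts was not tested. In RNA-seq, SLC25A51 (-0.27 ± 0.06) and SLC35A4 (-0.26 ± 0.07) were called lower and SLC5A3, the myo-inositol carrier (0.31 ± 0.09), SLC26A1 (0.46 ± 0.13) and SLC30A4 (0.30 ± 0.10) higher; the calls of SLC25A51 and SLC35A4 did not hold under all 4 scalings.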

How the data were processed

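The authors deposited 2 tables of raw read counts per gene, 1 for each assay, over 12 libraries; the counts are whole numbers with no normalization. The submitters' processing notes name FastQC 0.11.2, the aligner HISAT2 2.1.0 with genome build hg38, SAMtools 1.3, and featureCounts as the counter. Not given in the sources used here are the annotation, the strand setting and what was done with multi-mapping reads. How reads over overlapping genes were assigned can change or remove the counts of single carriers.

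ERCC rows (92 species) were left out of library sizes and tests. Each assay was fitted alone over all genes with edgeR 4.0.16 (filterByExpr with a minimum count of 10, TMM scaling, quasi-likelihood F test, two-sided, Benjamini-Hochberg adjustment over all genes tested, threshold 0.05), in R 4.3.3 with limma 3.58.1. The difference between assays was tested as a genotype-by-assay term in 1 fit of the 12 libraries, for genes kept in both. SE is the absolute log2 fold change over the square root of F. The fits were also run on simulated counts with the same dispersion for all genes and no deviating library. That run cannot show how the fits handle the spread of the 4sU-seq libraries seen here. Alternatives were DESeq2 1.42.0 size factors, ERCC or library size scaling, no filter or a minimum mean count of 50, a replicate block, each library left out, RNA-seq KO replicates 1 and 2 added together, DESeq2's Wald test and a member minimum of 50 counts.

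In 4sU-seq, KO and Ctrl libraries numbered 2 and those numbered 3 deviated together across genes (correlation 0.95 and 0.92). Those numbered 1 did not (-0.26), and KO replicate 1 went with Ctrl replicate 3 (0.87). In RNA-seq the correlations were -0.12, 0.36 and 0.44 for numbers 1, 2 and 3. The labels give a number and no pairing, so the main fits had no replicate term. With the replicate block, 46 carriers were called in 4sU-seq, against 27 without it. Over all 21236 genes tested, 6907 were called with the block and 4166 without it. Spans, exon lengths and overlaps came from GENCODE 29 (hg38), which may not be the authors' annotation and matched 154 of the 164 members; promoters came from RefSeq. Plots were drawn with matplotlib 3.10.9 in Python 3.11.15. Depth limits precision: 3 counts equal 0.0302 to 0.0365 normalized CPM in the 4sU-seq libraries, while in the RNA-seq libraries they equal 0.0739 to 0.0972.

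The members, substrate classes, marker lists and tests were chosen with earlier results of these data known. Classes follow the family number. The genes named were PPM1G; per assay the 10 highest and 10 lowest called members without overlap; for each class and assay the 3 called members of smallest p, or fewer; members called for the difference between assays; the 10 highest per kb; those next to the count threshold or below it in 1 group; and at most 4 called genes per assay from a list of other transport genes. Some genes that this rule names are not reported here. Other members named, the motifs and the promoters were chosen after their values were seen.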

Additional observations from a re-analysis of the deposited data

Results flagged for a closer look

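The KO effect differed between 4sU-seq and RNA-seq, by edgeR's test of the interaction of genotype and assay, for 4 of the 157 carriers tested, and all are given with their library values above. These shares, 0.637% higher and 1.91% lower, stand beside 1.27% and 1.24% of all genes tested, so their number is near the background. The effect in 4sU-seq minus that in RNA-seq was 0.87 ± 0.18 on the log2 scale for SLC45A1 (SE, edgeR adjusted p = 0.0323), -0.61 ± 0.14 for SLC27A5 (edgeR adjusted p = 0.0417), -0.62 ± 0.12 for SLC7A6 (edgeR adjusted p = 0.0278) and -0.79 ± 0.12 for SLC25A29 (edgeR adjusted p = 0.0102). In 4sU-seq KO replicate 2 was the highest KO library for all 4 genes, and for the 3 genes with a lower effect it was therefore the nearest to the Ctrl libraries. With 3 libraries in a group, single libraries could not be tested as outliers.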

How the results depend on the processing

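The 4sU-seq counts rest on few libraries and on the scaling. Against 7 higher and 20 lower carriers in 4sU-seq, ERCC scaling gave 1 and 0, library size alone 12 and 8, and the replicate block 17 and 29. DESeq2's Wald test called 41 carriers there, 11 of them higher and the rest lower. Leaving out both replicates numbered 2 gave 30 and 60. Without 1 library each, the higher count ran between 2 and 27 and the lower between 4 and 71; the highest of both came without KO replicate 2, and the lower count was at most 8 without any other library. In RNA-seq, against 46 higher and 53 lower, library size alone gave 81 and 27 and ERCC scaling 26 lower, and the replicate block gave 50 and 55. The counts without 1 RNA-seq library each stayed within 1.5 times of these. For the difference between assays, against 1 higher and 3 lower, ERCC scaling gave 0 and 0, library size alone 0 higher, no filter 0 and 1, the replicate block 2 and 4, the merged RNA-seq KO libraries 0 and 1, DESeq2's Wald test 2 and 10, and leaving out both 4sU-seq replicates numbered 2 gave 18 and 28. Without 1 library each, these counts ran between 0 and 18 and between 1 and 33. Calls over all genes moved with these settings too, so the carrier counts are a description only. In 4sU-seq they went from 4166 of 21236 genes to 6907 with the replicate block and 5518 with DESeq2's Wald test. Without KO replicate 2 they were 11673 of 21686. For the difference they went from 398 of 15863 genes to 1111 of 14938 by DESeq2's Wald test. Without KO replicate 2 they were 4361 of 15885, and without both replicates numbered 2 they were 3928 of 15879. ERCC scaling shifts the median log2 change of all genes to 0.27 in 4sU-seq, against 0.05 with TMM, and library size alone shifts it to 0.14 in 4sU-seq and 0.19 in RNA-seq. The 1 named call that changed sign was SLC25A6 in RNA-seq, at 0.0195 by library size alone against -0.17. Of the calls of named carriers, 898 values under alternatives kept the call, 193 lost it with the same sign, and 1 lost it with a changed sign. The causes were not tested beyond the construction of each alternative.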

Other observations

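Of a list of 63 other transport genes (pumps, channels and partners of the carriers), all in the tables, 14 were higher and 27 lower in KO in RNA-seq by edgeR's test, and 7 of 60 tested were higher and 4 lower in 4sU-seq. The RNA-seq shares, 22.2% and 42.9%, were near the 20.9% and 42.1% of protein-coding genes with a mean of 100 counts or more, and the 4sU-seq shares were 11.7% and 6.67% beside 6.16% and 9.16%. The cholesterol and phospholipid exporters ABCG1 and ABCA1 rose most, by 2.78 ± 0.20 and 1.76 ± 0.20 on the log2 scale in RNA-seq (SE) and by 2.46 ± 0.14 and 2.23 ± 0.15 in 4sU-seq. The glycerol and water channel AQP3 was also higher in both (1.41 ± 0.12 in RNA-seq and 1.53 ± 0.31 in 4sU-seq). The organic anion exporter ABCC3 was lower in RNA-seq (-0.93 ± 0.08) and was not called in 4sU-seq (-0.24 ± 0.11, edgeR adjusted p = 0.181); of these genes it alone was called for the difference between assays (0.69 ± 0.14, edgeR adjusted p = 0.0268). BSG, the chaperone that brings the lactate carriers SLC16A1 and SLC16A3 to the plasma membrane, was called lower in RNA-seq (-0.31 ± 0.06), while neither of these carriers was called there.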
